A study of Homo sapiens with 11 samples.

Results

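In the MDA-MB-231 cell line, an established human triple-negative breast cancer line derived from a pleural effusion, 6471 of the 30687 mH2A1.1 peaks were single 3000 bp bins that lay between protein-coding genes and overlapped no peak of total mH2A1. They were chosen by the peak calls themselves, on 3 conditions. The peak was 1 bin of 3000 bp wide, it shared no base with an mH2A1 peak, and it lay more than 1 kb from every protein-coding transcription start site (TSS) with its midpoint in no protein-coding gene. These mH2A1.1-only single bins between genes made up 21.1% of the mH2A1.1 peaks (95% interval 20.6% to 21.5%) and 43.0% of the 15042 mH2A1.1-only single-bin peaks, but 6.69% of the bases under mH2A1.1 peaks. The other mH2A1.1-only single bins were 7015 inside genes and 1556 at promoters. Between genes, 1919 mH2A1.1 single bins were shared with an mH2A1 peak, and 5603 single bins were called with the mH2A1 antibody alone.

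The peaks came from 1 ChIP-seq library for each antibody, both from WT cells crosslinked with paraformaldehyde, a custom polyclonal antibody against the mH2A1.1 isoform and Ab37264 against total mH2A1, which includes that isoform. With 1 library for each antibody, being called with one antibody and not with the other has no replicate check, and no test was made on the regions. The study found both data sets highly similar and went on with only the peaks they had in common. The bins described here were thus outside the peaks that the study used. The peak calling was tuned to each library, and per the study Ab37264 bound tagged mH2A1.1 less strongly than the custom antibody did, so the part of thresholds and antibodies in the split cannot be told apart. The 4 RNA-seq libraries were 2 of WT cells, which received the transfection reagent and no siRNA, and 2 of KD cells, which received siRNA against mH2A1.1 (11 nM), all taken on the third day. Nothing in the sources used here says whether the replicates came from separate cultures, so p-values measure the spread between these libraries. The cells had no other genetic change named in the labels.

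mH2A1 is an unusual form of histone H2A with a large globular macro domain at its tail end. Alternative splicing gives mH2A1.1 and mH2A1.2, and the pocket of the macro domain accepts ADP-ribose in mH2A1.1 but not in mH2A1.2. mH2A1 is known from the inactive X chromosome and from large repressed domains, and between genes it can meet enhancers, which are stretches bound by transcription factors such as AP-1 that act on genes at a distance.

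Sequences of the bins are shown first for those that held the most matches to TGACTCA, the site of the AP-1 factors FOS and JUN, counted on both strands. TGACTCA and its reverse complement are in capitals, and coordinates are of GRCh38, plus strand. The bin with most matches, 9, lay 153670 bp from the TSS of TMEM132C, inside an annotated lncRNA. Its matches were 34, 35, 68 or 102 bp apart, and the first stretch of 300 bp with the most of them, chr12:128113298-128113597, was a tandem repeat.
TMEM132C bin: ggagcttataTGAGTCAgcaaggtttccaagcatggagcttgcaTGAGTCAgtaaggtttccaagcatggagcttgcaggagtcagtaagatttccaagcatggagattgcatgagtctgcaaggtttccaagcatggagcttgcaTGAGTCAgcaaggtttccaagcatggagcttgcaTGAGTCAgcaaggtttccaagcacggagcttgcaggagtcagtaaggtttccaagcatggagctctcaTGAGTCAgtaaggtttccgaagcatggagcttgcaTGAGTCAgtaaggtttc
The bin 37103 bp from the TSS of BMP10 held 5 matches at spacings of 139 to 759 bp, 2 of which lay in chr2:68907331-68907514, with no such repeat.
BMP10 bin: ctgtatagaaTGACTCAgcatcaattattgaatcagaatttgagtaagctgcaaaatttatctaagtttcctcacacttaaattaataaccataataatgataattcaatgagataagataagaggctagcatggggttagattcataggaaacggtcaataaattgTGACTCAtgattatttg
The bin 140636 bp from the TSS of ZNF479 also held 5, of which 2 lay 69 bp apart in chr7:57279102-57279197.
ZNF479 bin: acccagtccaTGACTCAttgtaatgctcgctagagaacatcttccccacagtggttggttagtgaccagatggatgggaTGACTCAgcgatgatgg
Among bins with 4 matches, 1 lay 280207 bp from the TSS of C1orf174 and another 72331 bp from that of HOXC13.

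A second set is shown because whole genes other than protein-coding genes lay inside the bins. A miRNA gene of GENCODE overlapped 12 of the bins (0.185%, 95% interval 0.0959% to 0.324%). Among all 3000 bp grid bins without unknown bases at such positions the share was 0.0995%, or 0.146% when weighted to the same GC content. The miRNAs below are thus examples and not a feature particular to the bins. Of the 1562 miRNA hairpins in RefSeq on GRCh38.p14, 15 lay wholly in 10 of the bins. The list of mature miRNAs left out a chromosome that the hairpin count kept, and 27 of those listed lay in 11 bins. The hairpin and mature counts therefore do not cover the same part of the genome. The seed, bases 2 to 8, is in capitals. The bin chr12:62601001-62604000 held let-7i, one of the let-7 family known for restraining growth genes, and the seed of let-7i-5p was shared by 11 of the distinct mature sequences in the table.
let-7i-5p: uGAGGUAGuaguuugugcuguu
let-7i-3p: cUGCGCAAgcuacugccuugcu
The bin chr14:101064001-101067000 held 6 neighbouring miRNAs of the imprinted DLK1-DIO3 region, and 161778 bp separated its midpoint from the nearest protein-coding TSS, that of RTL1.
miR-541-3p: uGGUGGGCacagaaucuggacu
miR-409-3p: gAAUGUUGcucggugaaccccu
miR-412-3p: aCUUCACCugguccacuagccgu
miR-369-3p: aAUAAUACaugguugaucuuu
miR-410-3p: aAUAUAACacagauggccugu
miR-656-3p: aAUAUUAUacagucaaccucu
Bins at chr19:53670001-53673000 and chr19:53685001-53688000 held members of the primate miRNA cluster of that chromosome.
miR-1323: uCAAAACUgaggggcauuuucu
miR-515-5p: uUCUCCAAaagaaagcacuuucug
miR-519c-3p: aAAGUGCAucuuuuuagaggau
No seed occurred more than once among the 27 listed mature miRNAs, and seeds of those left out of the list were not compared. The mature miRNAs themselves were not measured in these libraries of long RNA.

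Promoters of genes outside the protein-coding set were the third kind of sequence in the bins. RefSeq promoters, 300 bases around a start, lay wholly inside 144 of the bins (2.23%), with 165 entries for 152 gene symbols, and 3 of these symbols (DCT, MALL and OR2L13) are protein-coding genes whose RefSeq start differs from the start used here. Their median was 7 CpG dinucleotides and 52.3% GC, against 14 and 58.7% over the 35116 promoters in the table. The table also holds promoters of protein-coding genes, which the condition on position kept out of the bins. The contrasts with all promoters, here and for the sites below, therefore follow in part from the choice of bins. Non-coding promoters outside the bins were not compared. GGGGCGGGG, an SP1 site, was found on either strand in 4 of the 165 (2.42%) and in 15.7% of all promoters, TGACTCA in 10 (6.06%) and in 4.95%, and CCGGAAGT, an ETS site, in none and in 4.14%. A promoter with 27 CpG, of the host gene of let-7i, is shown beside one with 7, both on GRCh38.p14 with CG in capitals.
MIRLET7IHG, chr12:62602493-62602792, plus strand: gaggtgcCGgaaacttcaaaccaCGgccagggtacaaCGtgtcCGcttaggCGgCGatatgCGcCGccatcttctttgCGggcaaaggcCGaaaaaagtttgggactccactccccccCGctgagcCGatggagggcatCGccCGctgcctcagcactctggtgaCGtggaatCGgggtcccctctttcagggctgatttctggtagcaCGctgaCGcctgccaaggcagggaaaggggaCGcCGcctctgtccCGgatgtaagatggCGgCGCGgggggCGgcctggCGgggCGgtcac
LINC01224, chr19:23416025-23416324, minus strand: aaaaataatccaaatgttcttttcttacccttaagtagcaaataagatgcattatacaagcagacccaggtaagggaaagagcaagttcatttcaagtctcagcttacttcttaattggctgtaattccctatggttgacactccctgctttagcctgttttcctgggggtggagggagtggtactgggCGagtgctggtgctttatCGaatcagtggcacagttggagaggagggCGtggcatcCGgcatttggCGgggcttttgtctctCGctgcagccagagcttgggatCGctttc
The bin around the MIRLET7IHG promoter held 180 CpG at 52.3% GC, whereas the median of the bins was 30 CpG.

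Bins of middle to high GC content carried most of the peaks. The median GC content of the mH2A1.1-only single bins was 44.3% (quartiles 41.7% and 47.2%), against 39.1% (35.9% and 43.2%) in the 531616 eligible bins, which are the 3000 bp grid bins without unknown bases that meet the same condition on position. On average, 12.2 of 1000 eligible bins held such a peak. The rate was 0.865 (95% interval 0.692 to 1.07) under 35% GC and 2.15 (1.89 to 2.44) from 35% to 38%. It was 22.4 (21.4 to 23.4) from 41% to 44% and 32.6 (30.6 to 34.6) from 47% to 50%, and above 50% it was 25 (23.3 to 26.9). These Clopper-Pearson intervals cover counting error only, and neighbouring bins are not independent.

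The mH2A1-only single bins had a median GC content of 44.1%. Their rate was highest, 28.3 per 1000 eligible bins (26.9 to 29.7), from 44% to 47%, where the mH2A1.1-only rate was 30.9 (29.4 to 32.4). The intervals did not overlap from 41% to 44%, where the mH2A1-only rate was 19.4 (18.5 to 20.4), from 47% to 50%, where it was 25.9 (24.1 to 27.7), and above 50%, where it was 18.9 (17.4 to 20.6). The mH2A1-only list was also the shorter, with 5603 bins against 6471. The rates were not scaled to the length of the list, so a gap between them is not by itself a difference in GC content. The shared single bins lay at a higher GC content, with a median of 46.3% and a highest rate of 15.0 (13.7 to 16.5) from 47% to 50%. Promoter bins called with mH2A1.1 alone stood further away, at 50.9% GC and a median of 112 CpG. The same CpG median was 30 for mH2A1.1-only and mH2A1-only bins between genes, 35 for the shared bins and 21 for the eligible bins.

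**Figure D1:**
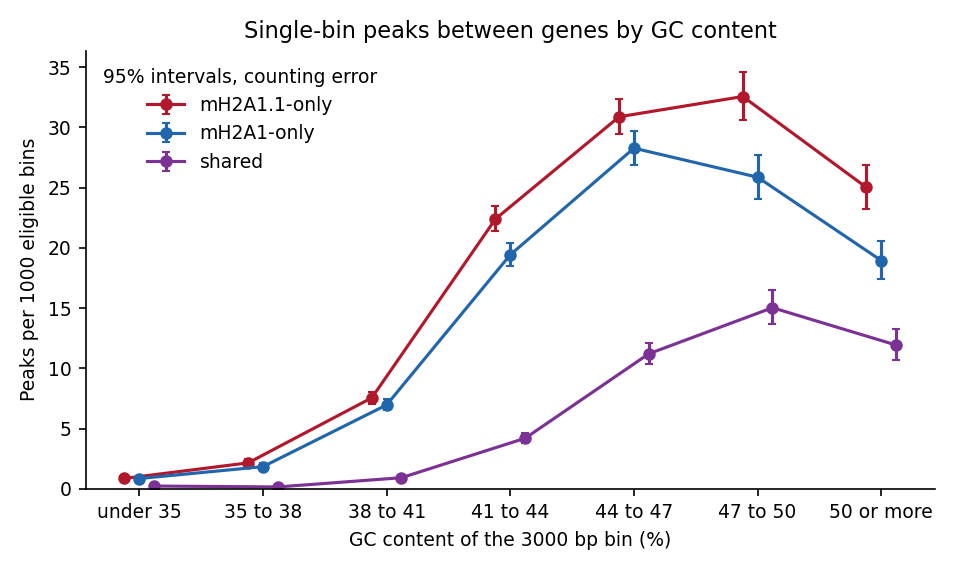
Single-bin peaks between genes per 1000 eligible bins (y axis) in 7 strata of the GC content of the bin (x axis, %), for mH2A1.1-only, mH2A1-only and shared peaks, with 95% Clopper-Pearson intervals. The mH2A1.1-only rate climbed from 0.865 under 35% GC to 32.6 between 47% and 50%, and the mH2A1-only rate was highest, 28.3, between 44% and 47%.

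Matches to transcription factor sites were close to what bins of the same GC content held. TGACTCA occurred at least once in 2689 of the 6464 bins without unknown bases, or 41.6% (40.4% to 42.8%), against 36.4% of the eligible bins. When eligible bins were weighted to the GC content of the mH2A1.1-only bins, in strata of 1 percentage point, their share was 39.9%. The shared bins held it in 46.8% (44.5% to 49.0%) and the mH2A1-only bins in 42.4% (41.1% to 43.7%). For CCACNAGNG, the core of the site of the insulator factor CTCF, the share was 23.7% (22.6% to 24.7%), with 18.1% in eligible bins and 23.8% after the weighting. The SP1 site stood at 4.07% (3.6% to 4.58%), with 2.34% and 4.02%, whereas promoter bins called with mH2A1.1 alone held it in 38%.

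For the other motifs, again on both strands, the share in the bins and in the GC-weighted eligible bins lay side by side. ACATTCC of the TEAD factors, which act with YAP, gave 34.5% (33.3% to 35.6%) and 36.0%. CAGGTG, the E-box bound by ZEB and SNAI repressors of epithelial genes, gave 93.9% (93.3% to 94.4%) and 91.9%. TGTGGTT of RUNX factors gave 42.6% and 43.2%, TGTTTAC of forkhead factors 32.3% and 32.9%, TTGCNNAA of C/EBP factors 77.3% and 76.7%, CCGGAAGT of ETS factors 1.69% and 1.64%, and TGACGTCA of CREB factors 1.45% (1.18% to 1.78%) and 1.27%. None of the motifs contains another, and a match says only that the letters occur in the bin.

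The bins lay at a median of 73097 bp from the nearest protein-coding TSS (quartiles 27119 and 192477 bp), while eligible bins lay at 165013 bp. At the GC content of the mH2A1.1-only bins the median of eligible bins was 82563 bp. Within 50 kb of a TSS were 39.7% of the bins, 46.7% (44.4% to 49.0%) of the shared and 41.7% (40.4% to 43.0%) of the mH2A1-only bins, and 26.1% of eligible bins, or 38.1% after the weighting. Per 1000 eligible bins the rate was 19 (16.5 to 21.6) in the band up to 5000 bp and 19.2 (18.1 to 20.3) between 25000 and 50000 bp. It fell to 8.40 (7.81 to 9.03) between 250000 and 500000 bp and to 3.82 (3.48 to 4.17) farther out, where it was 0.630 of the number that the GC content of the bins gave. The limit of 1 kb was part of the choice: the closest midpoints among the bins were 2502, 2510 and 2512 bp from a TSS, of PAX3, TLR10 and BRD7, and the farthest midpoints among promoter bins were 2495, 2494 and 2491 bp away.

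**Figure D2:**
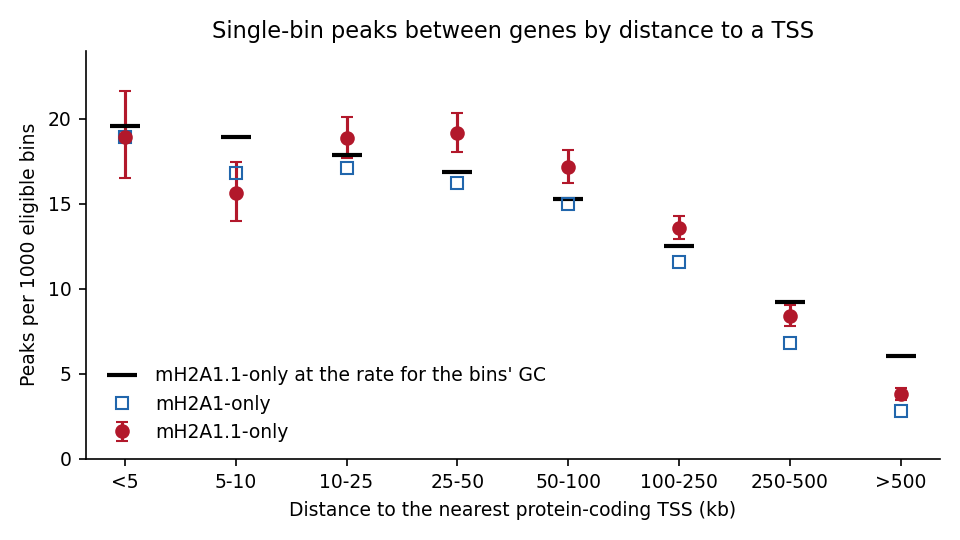
mH2A1.1-only single bins between genes per 1000 eligible bins (y axis; points with 95% intervals) in 8 bands of distance to the nearest protein-coding TSS (x axis, kb), with the rate given by GC content (black dashes) and the mH2A1-only rate (squares). The rate was 13.6 or more in each band up to 250000 bp and 3.82 beyond 500000 bp.

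The most distant bins lay on short arms and beside a centromere. The 5 farthest from a TSS lay at chr21:5097001-5100000, at chr22:11574001-11577000, chr22:11607001-11610000 and chr22:11814001-11817000, and at chr1:125121001-125124000, between 3712690 and 5423050 bp from the TSSs of TPTE, OR11H1 and FAM72B. The first held 119 CpG at 61.0% GC. Short arms and centromere flanks hold many duplicated stretches, on which reads are hard to place.

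Chromosomes differed in how many of the bins they carried. Per 1000 eligible bins the rate was highest on chromosomes 20 (17.4), 19 (17.4) and 10 (16.6) and, among chromosomes with any, lowest on 21 (6.42), X (7.29) and 13 (9.07). GC content differs between chromosomes, so each was also compared with the number that the genome-wide rate at the GC content of its bins gave. Chromosome 4 carried 399 against 300 (a ratio of 1.33) and chromosome 5 carried 458 against 364 (1.26). The ratios were lowest on 22 (0.621, with 79 bins), 21 (0.623, 55 bins), 16 (0.693, 160 bins), X (0.694, 244 bins) and 17 (0.725, 163 bins). Chromosome Y carried none, and no mH2A1-only single bin either. Its 7522 eligible bins stayed in the background, where their GC content gave 92.6. The copy number of the chromosomes in these cells was not measured here, and its part in these rates was not tested.

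**Figure D3:**
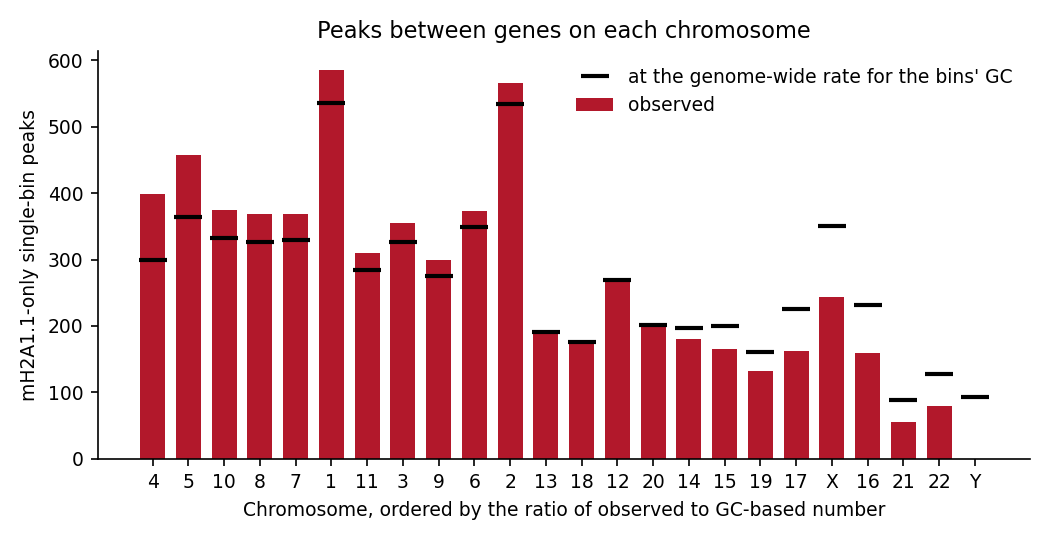
Number of mH2A1.1-only single bins between genes on each chromosome (y axis; bars), with the number that the genome-wide rate at the GC content of its eligible bins gave (black dashes), ordered by their ratio (x axis). Chromosomes 4 and 5 stood highest above their dashes, and 16, 17, 21, 22 and X stood below.

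Peaks of the other antibody were often near. A gap of 18000 bp was the median to the nearest mH2A1 peak (quartiles 6000 and 72000 bp), whereas for eligible bins outside mH2A1 peaks it was 150000 bp. The eligible bins were not weighted to the same GC content in this comparison. Although none overlapped an mH2A1 peak, 765 of the bins (11.8%) touched one and 1856 (28.7%) had one closer than 9 kb, so for these the split between mH2A1.1-only and shared rested on the edge of a peak. At the other end, 1277 (19.7%) were at least 100 kb from any mH2A1 peak. The mH2A1-only single bins lay at a median of 15000 bp from an mH2A1.1 peak. No 2 peaks of the same list lay closer than 9 kb, so a single bin was also a bin with no further bin of its own list within that distance. To the nearest other mH2A1.1 peak the median gap was 24000 bp, to the nearest shared mH2A1.1 peak 99000 bp, and to the nearest mH2A1.1 peak of at least 24 kb 867000 bp.

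The bins were spread over the genome with some runs. Of 2235 windows of 1 Mb with at least 100 eligible bins, 553 (24.7%) held none, the median was 2 and 27 windows held 10 or more. The fullest window, chr20:60000001-61000000, held 18 bins in 322 eligible ones, nearest to CDH26 or CDH4, cadherin genes of cell adhesion. Next came chr19:29000001-30000000 with 14 bins, of which 5 were nearest to VSTM2B, and chr11:116000001-117000000 with 13, of which 11 were nearest to BUD13. The longest run of such bins with steps of at most 100 kb and no other mH2A1.1 peak between them held 9, from chr11:116400001 to 116592000, all nearest to BUD13 at 182487 to 371487 bp from its TSS. One bin of the run held the start of the lncRNA LINC02151 and 97 CpG.

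Non-coding genes were under many of the bins. A lncRNA of GENCODE covered some of 2072 bins (32.0%, 30.9% to 33.2%), against 28.5% of eligible bins and 28.6% after the weighting. The start of a lncRNA lay in 227 bins (3.51%, 3.07% to 3.99%), against 1.78% and 2.81%. The same share was 3.86% (3.04% to 4.82%) in shared and 3.19% (2.75% to 3.69%) in mH2A1-only bins, so the 3 intervals overlapped. Pseudogenes were in 5.81% of the bins and 5.87% of the weighted eligible bins. In all, 2144 genes outside the protein-coding set overlapped a bin, 1709 of them lncRNAs, and 453 were in the count tables, of which 204 had no count in either WT library. MIR646HG held 11 bins, CCDC26 held 9, and CASC15, next to SOX4, held 7.

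The RNA-seq libraries held 9794674 and 7856892 counts in WT and 5584962 and 2309549 in KD, which limits the precision of low genes. KD replicate 2 had 30 counts on chromosome 21 and none on 22 and X, so genes of these chromosomes were left out of the fits. MACROH2A1, the gene of both isoforms, had 385 and 394 CPM (counts scaled to the library size and normalised by TMM factors) in WT and 274 and 300.1 CPM in KD, a log2 fold change of -0.44 ± 0.17 (SE, n = 2 per group, edgeR adjusted p = 0.205; DESeq2 adjusted p = 0.182), and gene counts do not separate its isoforms. Of markers of mesenchymal basal breast cells, 7 of 8 had counts in both WT libraries, led per kb by VIM (466 CPM per kb in WT), and TWIST1 was at 0 in all libraries. The luminal markers ESR1 and PGR were at 0 in all libraries and FOXA1 at 0 or 1 count, although KRT18, KRT19 and KRT8 had between 76.4 and 118 CPM per kb in WT. Of the immune markers, CD3E had at most 1 count and CD14 had 3 to 31. In such bulk samples fewer cells of a type and less RNA per cell cannot be told apart.

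The 10 non-coding genes over a bin with the highest mean CPM in WT were 8 lncRNAs, 1 pseudogene and 1 snoRNA. Per kb of exon, SNORD3A, the U3 snoRNA of ribosomal RNA processing, had the highest level among them in WT, 189 CPM per kb, and FTX, a lncRNA of the X-inactivation centre, the lowest, 1.36. MIR100HG, the host of miR-100 and let-7a-2, held 5 bins and had 149.8 and 127 CPM in WT and 92.8 and 49.6 CPM in KD. Both KD libraries lay below both WT libraries, at a log2 fold change of -0.93 ± 0.30 (SE, edgeR, adjusted p = 0.194; DESeq2, adjusted p = 0.0468). NUTM2A-AS1, with 2 bins, had 50.7 and 45.2 CPM in WT and 28 and 28.4 CPM in KD, without overlap, at -0.77 ± 0.20 (edgeR adjusted p = 0.194; DESeq2 adjusted p = 0.0866). SNORD3A, whose start lay in a bin, had 123 and 141 CPM in WT and 139 and 1255 CPM in KD. The high value was that of KD replicate 2 alone, and the log2 fold change of 2.39 ± 0.85 was 0.08 without it. SNORD3A has near-identical copies, as do CYTOR and MIR4435-2HG with each other, so their counts are uncertain. CYTOR (0.30 ± 0.17), MIR4435-2HG (0.07 ± 0.18), EBLN3P (-0.52 ± 0.21), CCDC144BP (-0.12 ± 0.22), LINC-PINT (-0.24 ± 0.25) and LINC01224 (-0.05 ± 0.19) were not called by either tool. FTX lies on X and was not tested, since KD replicate 2 had no counts there. DESeq2 gave an adjusted p for 16 of the genes over a bin and called 2 lower in KD, MIR100HG and NUTM2A-AS1, and none higher, against 5.73% lower and 5.52% higher over all genes with one. NUTM2A-AS1 is annotated as antisense, and how the counting treated strand was not checked here.

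To see which genes the bins surrounded, each was assigned to the protein-coding gene with the nearest TSS. The 6471 bins had 3720 nearest genes, 18.6% of the 20033 protein-coding genes, and of these 2372 had 1 bin, 1169 had 2 to 4 and 179 had 5 or more. Among the 10 genes with most bins were DEFB115, UQCRFS1, SOX4, ADAMTS9, BUD13, CDH26, MSX2, SOX9 and GATA3. Several of them encode transcription factors of development, and most have long stretches without other genes beside them. The number of bins therefore has to be set against the eligible bins that have the same gene as nearest.

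DEFB115 had 14 bins in 786 eligible ones (17.8 per 1000) and UQCRFS1, a subunit of respiratory complex III, 14 in 894 (15.7), against a rate of 12.2 over the genome. SOX4 (chr6:21593751-21598619), a factor of progenitor cells and of epithelial-mesenchymal transition, had 12 in 236 (50.8 per 1000), from 7251 to 361251 bp from its TSS. ADAMTS9, a protease of the extracellular matrix, had 11 in 222 (49.5). BUD13, a splicing factor, had 11 in 203 (54.2), CDH26 11 in 193 (57.0) and MSX2, a homeobox factor, 11 in 230 (47.8). SOX9 (chr17:72121020-72126416), a factor of cartilage and of mammary stem cells, had 11 in 485 (22.7), and GATA3 (chr10:8045378-8075198), a factor of luminal cells, 10 in 458 (21.8). mH2A1-only single bins between genes also had these genes as nearest. BUD13 and GATA3 had 12 each, DEFB115 11, SOX4, CDH26 and SOX9 9 each, MSX2 8, ADAMTS9 6 and UQCRFS1 3. A high number of bins near a gene was thus not particular to the mH2A1.1-only bins. These genes ranged widely in their own RNA. Per kb of exon, SOX9 had 49.2 CPM and UQCRFS1 24.7 in WT, SOX4 had 7.42 and GATA3 5.42, MSX2 had 0.160, and DEFB115 and CDH26 had no counts.

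Developmental transcription factors, as a list of 41 genes, included 25 nearest genes (61.0%, 44.5% to 75.8%) with 112 bins, against 18.6% of all protein-coding genes. Their surroundings were wide, and 15.7 of 1000 eligible bins around them held a peak, against 12.2 over the genome. NR2F2 (10 bins) and TFAP2A (9) followed SOX4 and SOX9. Genes of integrins and extracellular matrix had the highest rate of the lists, 30.5 per 1000, with 11 of 25 nearest genes (44%, 24.4% to 65.1%) and 30 bins. TNC, the matrix protein tenascin-C, had 7 bins in 171 eligible ones, ITGA6, the integrin alpha 6 chain, 4 in 53, THBS1, thrombospondin 1, 4 in 169 and COL1A2, a collagen I chain, 3 in 71.

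Of EGFR and MAPK signalling genes 13 of 22 were nearest genes (59.1%, 36.4% to 79.3%), at 15.9 per 1000, with MYC and SPRY1 at 6 bins each, DUSP4 at 5 and DUSP6 at 4. Of the epithelial-mesenchymal transition list 9 of 17 (52.9%, 27.8% to 77.0%) were, at 13.1 per 1000, among them CDH2 and ZEB2 with 6 bins each, TWIST2 with 4 and VIM with 2. The list of YAP, TEAD and TGF-beta response had 8 of 22 at 16.6 per 1000 (TGFB2 with 3 bins, AMOTL1, TEAD1 and TGFBR2 with 2), and the AP-1 factors 3 of 12 at 20.5 (BATF3 and JUN with 2, ATF3 with 1). Cytokines and chemokines had 5 of 21 at 8.35 (CXCL8, IL1A, NFKBIA and TNFAIP3 among them, with 1 each). Luminal markers had 2 of 10 (GATA3 and EPCAM), mesenchymal basal markers 3 of 8 (VIM, ZEB1 and CAV1), immune markers 2 of 4 (PTPRC and CD14), and the migration and cytoskeleton genes that the study named 2 of 10, ARRDC3 with 5 bins and HACE1 with 2, at 6.06 per 1000. The small lists have wide intervals, and no list was tested. Of mH2A1-only single bins, MYC had 10, SPRY1 7, DUSP4 3 and DUSP6 1. TGFB2 had 6 of them, AMOTL1 1, TEAD1 2 and TGFBR2 7, and TNC, ITGA6, THBS1 and COL1A2 had 2, 6, 4 and 0. The rate of mH2A1-only bins over a whole list is not given here.

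Expressed genes were nearest to the bins more often than to eligible bins. Over the bins whose nearest gene was in the count tables, that gene passed the count filter for 59.0% (57.8% to 60.2%), against 49.7% of eligible bins and 53.3% after weighting to the same GC content. The shares were 63.5% (61.3% to 65.7%) for shared and 60.8% (59.5% to 62.1%) for mH2A1-only bins. The median WT level of the nearest gene, counted once for each bin, was 2.29 CPM per kb of exon, against 0.578 for eligible bins, 1.36 after the weighting, 3.65 for shared and 2.78 for mH2A1-only bins. Per 1000 eligible bins the rate was 6.55 (5.73 to 7.46) where the nearest gene was not in the count tables and 10.7 (10.3 to 11.2) where it was under the count filter. When the tested genes were split into 4 classes of equal size by WT level, it was 12.2 (11.4 to 13) in the lowest class and 15.2, 16.7 and 16 in the classes above.

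KD and WT cells were compared to ask whether genes near these bins differ when mH2A1.1 is depleted. WT cells received no siRNA, so depletion and siRNA delivery cannot be told apart in this comparison. Per the study, a smaller share of reads mapped uniquely in both KD libraries than in both WT libraries. The part of mapping in the fold changes was not tested. Of the 3720 nearest genes 3582 were in the count tables and 2060 passed the count filter. By edgeR none of the 2060 was called (adjusted p under 0.1, change of more than 1.5-fold), and of all 10963 genes tested 0% were, with a smallest adjusted p of 0.176. At an unadjusted p under 0.05 and that fold, 290 nearest genes were lower in KD (14.1%, against 9.37% of all genes tested) and 93 higher (4.51%, against 9.45%). DESeq2, which the study used, called 135 of 1566 lower (8.62%, against 5.73%) and 32 higher (2.04%, against 5.52%). The median log2 fold change of the nearest genes was -0.17, with 63.9% below 0, against 0.01 over the 10506 protein-coding genes tested.

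Lower values were also measured for other sets of genes. The median was -0.16 for genes nearest to mH2A1-only single bins, -0.11 for those nearest to shared ones and -0.05 for genes nearest to any eligible bin. It was -0.13 for nearest genes with a bin within 50 kb and -0.21 for those with all bins farther away. Exon GC content moved with the fold change. The tested protein-coding genes were split into 4 classes of equal size by exon GC. In the lowest class (31% to 41.4%) the median was -0.44 for the 753 nearest genes and -0.43 for the 1874 other genes, in the next class -0.14 and -0.14, in the third 0.13 and 0.21, and in the highest class 0.39 and 0.45. Of the nearest genes, 36.6% (34.5% to 38.7%) lay in the lowest class, against 22.2% (21.3% to 23.1%) of the other genes, and 7.77% against 29.2% in the highest. In the lowest class DESeq2 called 111 of 628 nearest genes with an adjusted p lower (17.7%, 14.8% to 20.9%) and 221 of 1446 other genes (15.3%, 13.5% to 17.2%), and none and 5 higher. In the classes above, in order, it called 3.83% and 5.03%, 1.26% and 0.378%, and 0% and 0.24% lower. Higher were 1.15% and 0.839%, 4.09% and 5.48%, and 13.3% and 17.6%. In 4 equal classes of gene length the nearest genes had the lower median in each. From the shortest class on, the medians were 0.01 against 0.32, -0.17 against 0.09, -0.26 against -0.09 and -0.19 against -0.12. Without KD replicate 1 the median of the nearest genes was -0.32, and without KD replicate 2, the shallowest library, it was -0.08.

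**Figure D4:**
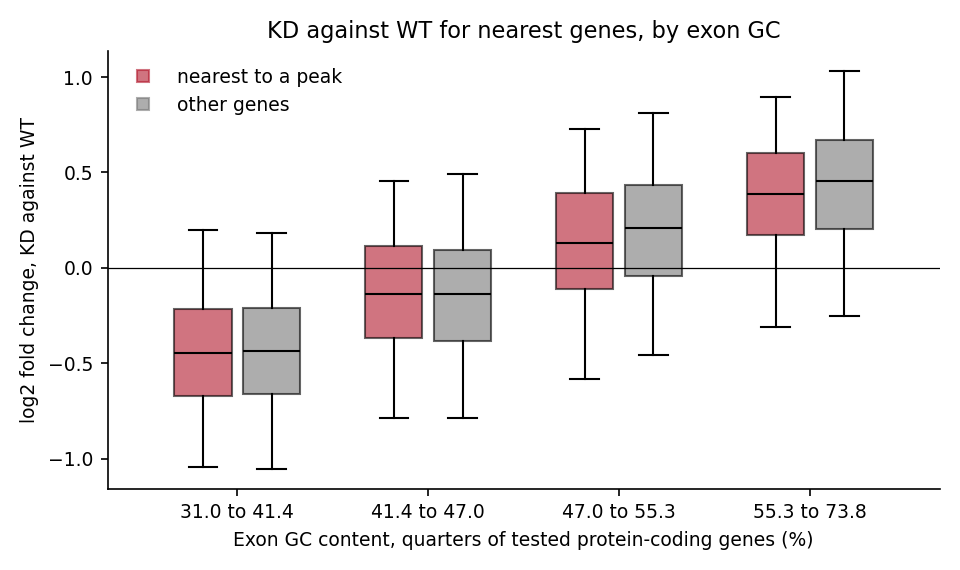
Log2 fold change between KD and WT (y axis, edgeR) of genes nearest to an mH2A1.1-only single bin between genes and of the other tested protein-coding genes, in 4 equal classes of exon GC content (x axis, %). Boxes show the median and quartiles and whiskers the 5th and 95th percentiles over genes, and the medians of both gene groups ran from -0.44 and -0.43 to 0.39 and 0.45.

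Since edgeR called none, the nearest genes past a fold change of 1.5 with the smallest unadjusted p are given. NR4A2 (chr2:156324437-156342348), an immediate-early nuclear receptor, had 94.9 and 88.4 CPM in WT and 24.6 and 19.4 CPM in KD. The KD libraries were far below the WT libraries, at -2.03 ± 0.21 (edgeR adjusted p = 0.176; DESeq2 adjusted p = 1.65e-08), and its 1 bin lay 151848 bp from the TSS. NR4A3 (chr9:99821855-99866891), of the same receptor family, had 12.2 and 9.34 CPM in WT and 2.08 and 1.89 CPM in KD, at -2.41 ± 0.35, with 2 bins, the closer at 37355 bp. ATF3 (chr1:212565334-212620777), a stress-induced AP-1 factor with 1 bin at 40834 bp, had 136 and 131 CPM in WT and 38.5 and 43.5 CPM in KD. Its log2 fold change was -1.71 ± 0.18 (edgeR adjusted p = 0.176; DESeq2 adjusted p = 8.04e-08). LMAN1, a cargo receptor between the endoplasmic reticulum and the Golgi, had 322 and 296 CPM in WT and 119 and 85.5 CPM in KD (-1.59 ± 0.22), and SSX2IP, a centrosome protein, 71.7 and 63.3 CPM in WT and 24 and 15.6 CPM in KD (-1.72 ± 0.25). In all 5 genes the groups did not overlap, and DESeq2 called NR4A2, ATF3, LMAN1 and SSX2IP lower, while it gave no adjusted p for NR4A3.

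The 5 on the higher side encode 2 enzymes and, 1 each, a receptor, a ligand and a transcription factor. ADAM19 (chr5:157395534-157575775), a membrane protease, had 90.6 and 101 CPM in WT and 197 and 228 CPM in KD, at 1.15 ± 0.19 (edgeR adjusted p = 0.176; DESeq2 adjusted p = 7.10e-04), with 1 bin 27725 bp from its TSS. AKR1B1, an aldose reductase, had 139 and 152 CPM in WT and 245 and 316 CPM in KD (0.95 ± 0.20; DESeq2 adjusted p = 0.00986). NRG1, a ligand of ERBB receptors, had 78.3 and 78.5 CPM in WT and 136 and 134 CPM in KD (0.78 ± 0.17; DESeq2 adjusted p = 0.0384), and OSR1, a zinc finger factor of mesenchyme, 21.7 and 21.6 CPM in WT and 38.5 and 40.2 CPM in KD (0.86 ± 0.19; DESeq2 adjusted p = 0.0714). S1PR1, a receptor of sphingosine-1-phosphate, had 5 bins in 159 eligible ones and the lowest counts of the 5, 3.16 and 3.16 CPM in WT and 8.5 and 7.09 CPM in KD (1.33 ± 0.29; no adjusted p from DESeq2). In each of these genes both KD libraries lay above both WT libraries.

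**Figure D5:**
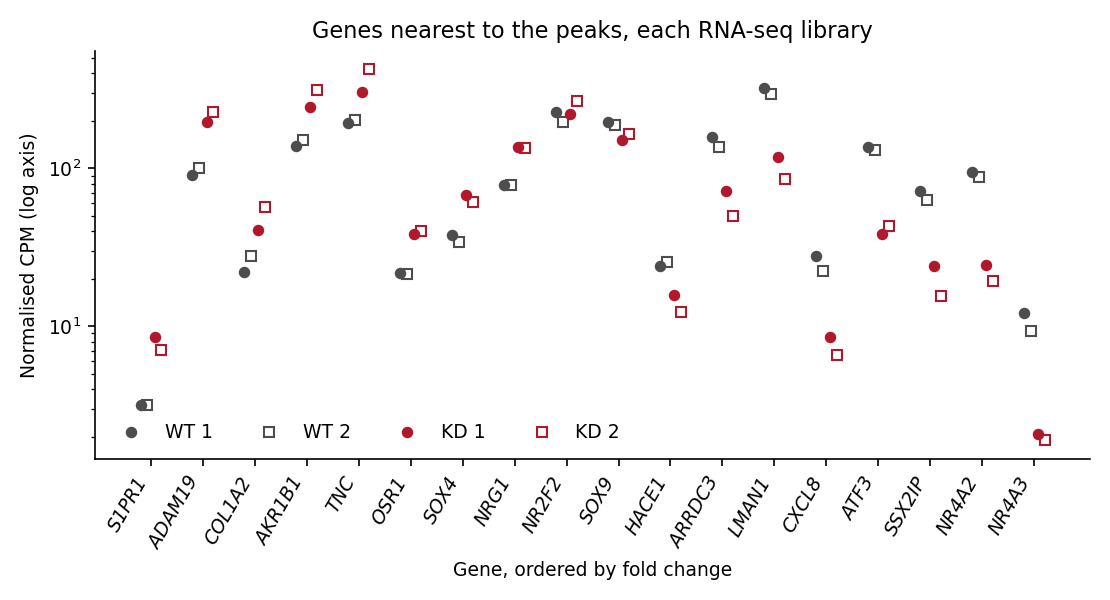
Normalised CPM on a log axis (y) of 18 genes nearest to mH2A1.1-only single bins between genes (x), with 1 point for each of the 2 WT and 2 KD libraries. From S1PR1 to NRG1 both KD points lay above both WT points, for NR2F2 the groups overlapped, and from SOX9 to NR4A3 both KD points lay below.

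Of the 10 genes with most bins, 6 were tested, and SOX4 had the largest difference of these. It had 38.1 and 34.2 CPM in WT and 67.8 and 61 CPM in KD, both KD values above both WT values, at 0.84 ± 0.19 (edgeR adjusted p = 0.192; DESeq2 adjusted p = 0.055). SOX9 had 197 and 189 CPM in WT and 151 and 165 CPM in KD (-0.29 ± 0.17; edgeR adjusted p = 0.314), and NR2F2 had 228 and 198 CPM in WT and 221 and 266 CPM in KD (0.19 ± 0.19), with overlap between the groups. ADAMTS9 (0.12 ± 0.19), BUD13 (-0.23 ± 0.18), UQCRFS1 (0.24 ± 0.19), TFAP2A (-0.30 ± 0.22) and GATA3 (0.16 ± 0.24) were not called by edgeR, nor by DESeq2, which gave no adjusted p for TFAP2A. Over the 12 tested nearest genes among the developmental factors the median was 0.02, and DESeq2 called 1 of the 7 with an adjusted p higher, against 5.52% over all genes.

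In the list of integrins and matrix, TNC had 195 and 202 CPM in WT and 307 and 425 CPM in KD, at 0.88 ± 0.21 (edgeR adjusted p = 0.194; DESeq2 adjusted p = 0.0199), and COL1A2 had 22 and 27.7 CPM in WT and 41 and 57.2 CPM in KD, at 0.96 ± 0.25 (edgeR adjusted p = 0.194; DESeq2 adjusted p = 0.0496). Both were higher in both KD libraries, while ITGA6 (-0.11 ± 0.22) and THBS1 (0.33 ± 0.26) were not called by either tool. The median of the 11 tested genes of this list was 0.21, and DESeq2 called 2 of the 11 higher and none lower, against 5.52% and 5.73% over all genes. VIM, the intermediate filament of mesenchymal cells, had 2315 and 2506 CPM in WT and 2978 and 4726 CPM in KD (0.68 ± 0.25, DESeq2 adjusted p = 0.0992). It was the 1 call of DESeq2 among the 5 nearest genes of epithelial-mesenchymal transition with an adjusted p. Over all genes DESeq2 called 5.52% higher. The luminal keratins were also higher in both KD libraries. KRT8 had 496 and 555 CPM in WT and 862 and 1364 in KD, KRT19 260.2 and 287 in WT and 486 and 656 in KD, and KRT18 344 and 380.4 in WT and 515 and 808 in KD, and their part in the result was not tested. CDH2 (-0.0021 ± 0.41), ZEB2 (-0.10 ± 0.19), ZEB1 (-0.32 ± 0.18), CAV1 (0.10 ± 0.19) and EPCAM (0.13 ± 0.21) were not called, and TWIST2 had no counts.

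In the signalling lists, SPRY1, an inhibitor of receptor tyrosine kinase signalling, had 38.8 and 29.7 CPM in WT and 22.7 and 18.9 CPM in KD (-0.70 ± 0.23; edgeR adjusted p = 0.194), and DUSP6, an ERK phosphatase, 316 and 313 CPM in WT and 209.7 and 227 CPM in KD (-0.53 ± 0.17; edgeR adjusted p = 0.194), neither called by either tool. MYC (0.23 ± 0.19) and DUSP4 (0.11 ± 0.17) were not called. The median over the 13 tested genes of this list was -0.32, and DESeq2 called 1 of the 13 lower and none higher, against 5.73% and 5.52% over all genes. JUN had 132 and 145 CPM in WT and 161 and 252 CPM in KD (0.57 ± 0.25; edgeR adjusted p = 0.22), and BATF3 had a fold change of -0.24 ± 0.35. CXCL8, the chemokine interleukin 8, had 27.7 and 22.4 CPM in WT and 8.5 and 6.62 CPM in KD, without overlap (-1.68 ± 0.26; edgeR adjusted p = 0.176, no adjusted p from DESeq2), while IL1A (0.42 ± 0.80), NFKBIA (0.14 ± 0.23) and TNFAIP3 (0.06 ± 0.21) were not called by edgeR, nor by DESeq2, which gave no adjusted p for IL1A. TGFB2 (-0.37 ± 0.21), TEAD1 (-0.48 ± 0.24), AMOTL1 (-0.03 ± 0.17) and TGFBR2 (-0.06 ± 0.17) were not called, and the median of the 8 tested genes of that list was -0.05. ARRDC3, an arrestin-like protein, had 158 and 137 CPM in WT and 71.8 and 49.6 CPM in KD (-1.26 ± 0.23; edgeR adjusted p = 0.176; DESeq2 adjusted p = 8.64e-04), and HACE1, a ubiquitin ligase of RAC1, 24.2 and 25.5 CPM in WT and 15.7 and 12.3 CPM in KD (-0.79 ± 0.23; DESeq2 adjusted p = 0.14). The study named both among several migration genes and counted them as lower in KD on these libraries, so their direction is not independent evidence. DESeq2 did not call HACE1 here.

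At the inner edge, the 5 expressed genes with a bin closest to the TSS were BRD7, a subunit of a chromatin remodelling complex, TSPAN3, a tetraspanin, INO80C, a subunit of the INO80 remodeller, SFXN1, a mitochondrial serine transporter, and ATP6V1C1, a subunit of the proton pump of lysosomes. Their closest bins had midpoints 2512 to 2563 bp from the TSS. None was called by either tool, and DESeq2 gave no adjusted p for INO80C. BRD7 had 91.7 and 88.6 CPM in WT and 79.7 and 65.7 CPM in KD (-0.30 ± 0.19), TSPAN3 123 and 118 CPM in WT and 107 and 91.7 CPM in KD (-0.27 ± 0.18) and SFXN1 146 and 135 CPM in WT and 116 and 94.5 CPM in KD (-0.41 ± 0.19). INO80C (0.57 ± 0.29) and ATP6V1C1 (-0.10 ± 0.18) complete the set.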

How the data were processed

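Peaks of mH2A1.1 and mH2A1 were deposited as positions on a 3000 bp grid of hg38. The authors called them with normR against the input, on 1 library for each antibody and with parameters set for each data set, after alignment with STAR 2.5.1 (processing notes). The deposited score column is 0 throughout, so peaks could not be ranked. The RNA-seq tables hold raw gene counts, which the authors made with HTSeq after filtering on mapping quality and removing duplicates. Of 23167 identifiers 23061 matched GENCODE release 44.

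Bins were classified on that annotation. Eligible bins and GC weighting in strata of 1 percentage point served as background. The weighting and the classes of exon GC and of gene length were added after the data had been examined. The deposited counts went into edgeR 4.0.16 under R 4.3.3 (TMM, filter on low counts, quasi-likelihood, Benjamini-Hochberg), with DESeq2 1.42.0 as alternative. Standard errors come from the F statistic. Shares have 95% Clopper-Pearson intervals from scipy 1.17.1, for counting error only. The members and lists were chosen with earlier results of these data known. Named genes were the 10 with most bins, the 5 higher and 5 lower with the smallest p past the fold, the 5 expressed ones closest to a bin, the 10 other genes with the highest WT CPM over a bin, and up to 4 per list. DEFB115 and OR11H1 belong to families with similar copies. DCT, MALL, OR2L13, PAX3, TLR10 and the genes of the fullest windows were named after their values were seen. The ChIP-seq input and the promoter capture Hi-C samples are not analysed here. Some genes that met the naming rule are not reported here.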

Additional observations from a re-analysis of the deposited data

How the results depend on the processing

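Calls depended on the test. Against 0 of 10963 genes called by edgeR, DESeq2 called 874 of 7765. Without the filter on low counts edgeR called 2139 of 15068, and with a replicate block 2208 of 10963. For the nearest genes these counts were 167 of 1566, 403 of 2578 and 416 of 2060. They are to be read beside those over all genes. The replicate numbers were not shown to pair the libraries (2 pairs, correlation of deviations 0.295). With chromosomes 21, 22 and X, with the nearest gene body and with every TSS within 50 kb the counts of nearest genes stayed at 0. Without WT replicate 1, WT replicate 2, KD replicate 1 and KD replicate 2 in turn, 2, 17, 4744 and 909 genes and 1, 4, 847 and 189 nearest genes were called, where the lone library was assumed to vary like the other group.

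The number of bins was 4107 when genes and TSSs of every type counted, and between 4615 and 6467 under the other rules. Counting mH2A1 peaks within 3000 or 9000 bp as overlap gave a median GC content of 44.1% and 43.8%, and the share with TGACTCA stayed between 41.5% and 41.7% throughout. A stricter peak threshold could not be tried.

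Of the 58 named genes with a fit, CDH2 changed sign under the replicate block (0.063). Leaving out 1 library changed the sign of 14, with log2 fold changes over the 4 fits of -0.074 to 0.0031 for AMOTL1, -0.53 to 0.20 for BATF3, -0.046 to 0.23 for CAV1, -0.44 to 0.10 for CCDC144BP, -0.28 to 0.29 for CDH2, -0.048 to 0.41 for GATA3, -6.13 to 0.97 for IL1A, -0.40 to 0.13 for ITGA6, -0.50 to 0.045 for LINC-PINT, -0.12 to 0.039 for LINC01224, -0.077 to 0.19 for MIR4435-2HG, -0.14 to 0.40 for NFKBIA, -0.069 to 0.64 for THBS1 and -0.029 to 0.15 for TNFAIP3.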
